A study of Mus musculus and Rattus norvegicus with 26 samples.

Results

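Intronic sequence of genes that modify or remodel chromatin was examined in lists of transcripts that keep pieces of their introns outside the nucleus (cytoplasmic intron-sequence retaining transcripts, CIRTs). Members were taken by name: every listed stretch of intronic reads (a contig) whose gene symbol begins with Kdm, Kmt, Setd, Smarc, Hdac, Ehmt or Arid, or with Chd or Mll followed by a digit or by nothing. This rule uses no measured value. It selected 1153 of the 112345 contigs in the 6 lists, from 67 gene symbols. By list, it took 260 of 26445 contigs in mouse dendrites, 130 of 12931 in mouse somas, 440 of 42338 in brown fat cells (BAT), 222 of 16069 in cardiomyocytes, 55 of 8459 in rat dendrites and 46 of 6103 in rat somas.

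DNA in the nucleus is wound around histones, and the members act on that packaging. SET domain enzymes (Mll, Setd, Ehmt) place methyl groups, in most cases on lysines of histones, Kdm enzymes remove them, and Hdac enzymes remove acetyl groups. Smarc, Chd and several Arid proteins belong to machines that use ATP to slide or evict nucleosomes, and mutations of many of these genes are known from disorders of brain and heart development. Their introns are normally removed in the nucleus, so that intronic reads in RNA from a dendrite are candidates for retained sequence. Reads from the other strand or from unannotated exons cannot be told apart from it.

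The neurons were hippocampal cells of C57BL/6 mice and Sprague-Dawley rats taken at embryonic day 18 and grown in culture, from which dendrites (pools of many per library) and somas were cut by hand. BAT cells came from interscapular tissue of CD-1 mice at embryonic day 17.5 and were picked by morphology. Cardiomyocytes came from ventricles at embryonic day 14.5 of transgenic C57BL/6 mice, hemizygous for the cell cycle reporter mAG-hGem (Fucci) under the CMV promoter, and were sorted by flow cytometry for fluorescence and viability, so that all come from 1 transgenic line. All RNA went through 3 rounds of amplification with an oligo(dT) primer, and the 26 libraries gave 6 lists, with 3, 3, 6, 9, 2 and 3 libraries labelled for the lists in the order above. The study describes fewer BAT cells and cardiomyocytes than that, so which libraries entered those lists is not known. Dendrites hold no nucleus, but somas, BAT cells and cardiomyocytes do, so in their lists retained and not yet spliced nuclear RNA cannot be told apart. The study therefore kept only contigs of at most 400 nt in whole cells. The deposited lists hold longer ones as well, all of which are used here.

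Each list gives 1 read count per intron for its whole group, so there was no replicate and no test was possible. Values below are counts, reads per 1000000 listed reads of the same list (RPM, a gene's intronic reads over those of all introns in the list), medians and 95% Wilson intervals, and the intervals cover counting error only, since amplified reads are not independent molecules. Fewer cells that hold a transcript and less of it per cell cannot be told apart. Listed reads in all came to between 1007530 in rat dendrites and 17858440 in BAT. Of 8 neuron markers, 7 were listed in mouse dendrites, mouse somas and also BAT, with Map2 listed nowhere. Their RPM was 2638.5 in mouse dendrites, 10797.4 in mouse somas and 1829.4 in BAT. Of 6 brown fat markers, 5 were listed in BAT (3539.3 RPM), and of 8 cardiomyocyte markers 6 were listed in cardiomyocytes (26322.4 RPM), where Nkx2-5 and Gata4 were not. Cardiomyocyte markers were also listed in BAT, 5 of 8 with 2779.5 RPM. In mouse dendrites 5 of 8 cardiomyocyte markers (519 RPM) and 4 of 6 brown fat markers (322 RPM) were listed, against 2 of 8 (10.2 RPM) and 2 of 6 (2.16 RPM) in mouse somas. Astrocyte markers had 50.9 and 139 RPM in mouse dendrites and somas, and fibroblast markers 36.6 and 55.0. In rat, 3 of 8 neuron markers were listed in dendrites (1421.3 RPM) and 5 of 8 in somas (7724.4 RPM). Fibroblast markers had 317 RPM in rat dendrites and 0.955 in rat somas, and astrocyte markers 68.5 and 120. The part of other cell types in the values below was not tested.

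Some member introns were spanned by a contig from the first base to the last. Nearby reads were joined into contigs, so a spanned intron need not have a read on every base. Some short ones, all from lists of whole cells or somas, are shown, each printed 5′ to 3′ on the strand of its gene (NCBIM37, the assembly also called mm9), with the splice dinucleotides in capitals. Chd4, the ATPase of the NuRD complex, had intron 27 at chr6:125070575-125070661 spanned in both BAT (23 reads) and cardiomyocytes (6 reads), and intron 30 at chr6:125071436-125071533 spanned in BAT (227 reads). Kdm6b, a demethylase of histone H3 lysine 27, had intron 22 at chr11:69213352-69213441 spanned in BAT (70 reads). Mll5 intron 9 at chr5:22984563-22984670 was spanned in mouse somas (24 reads) and BAT (9 reads), and Chd1 intron 6 at chr17:15867597-15867712 in cardiomyocytes (60 reads).
Chd4 intron 27: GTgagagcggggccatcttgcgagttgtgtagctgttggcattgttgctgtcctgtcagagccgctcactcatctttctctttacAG
Chd4 intron 30: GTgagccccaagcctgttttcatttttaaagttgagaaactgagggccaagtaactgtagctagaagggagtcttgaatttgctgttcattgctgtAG
Kdm6b intron 22: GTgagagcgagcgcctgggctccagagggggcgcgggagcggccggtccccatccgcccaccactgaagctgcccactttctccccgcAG
Mll5 intron 9: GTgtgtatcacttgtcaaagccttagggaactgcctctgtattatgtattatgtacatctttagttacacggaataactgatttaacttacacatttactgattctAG
Chd1 intron 6: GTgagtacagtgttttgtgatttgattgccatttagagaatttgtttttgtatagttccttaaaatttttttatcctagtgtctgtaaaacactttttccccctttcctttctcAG

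Setd5, a SET domain gene mutated in intellectual disability, had intron 9 (657 nt, chr6:113066117-113066773) spanned in 3 lists, with 4 reads in mouse dendrites, too few to lie on every base, 221 in BAT and 840 in cardiomyocytes. Its junctions are shown with 50 exon bases and 50 intron bases each, the first and the last 2 bases of the intron in capitals.
Setd5 exon into intron 9: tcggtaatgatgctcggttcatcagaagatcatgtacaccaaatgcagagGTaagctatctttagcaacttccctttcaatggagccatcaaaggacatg
Setd5 intron 9 into exon: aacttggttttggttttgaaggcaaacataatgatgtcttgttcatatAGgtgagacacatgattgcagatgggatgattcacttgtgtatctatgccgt

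Most listed pieces did not reach an intron end, and some of their ends lay at runs of A or T. For these, 120 bases around a contig end are shown, with runs of at least 10 A or T in capitals. The first 4 are the 3′ ends of contigs (the contig stops after base 60). The last 3 are 5′ ends (the contig begins at base 61, and in Kdm3a at base 60). In Hdac9 intron 8 the run of 14 A filled bases 46 to 59, just inside the end of a contig that had the same first and last base in mouse dendrites and mouse somas.
Hdac9 intron 8, mouse dendrites, chr12:35083094-35083213: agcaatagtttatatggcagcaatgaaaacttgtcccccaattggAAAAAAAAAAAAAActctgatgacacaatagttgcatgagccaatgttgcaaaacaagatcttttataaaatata
Hdac9 intron 2, mouse somas, chr12:35143514-35143633: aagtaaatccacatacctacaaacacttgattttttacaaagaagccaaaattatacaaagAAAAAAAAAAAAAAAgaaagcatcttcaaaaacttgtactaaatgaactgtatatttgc
Arid5b intron 9, BAT, chr10:67561761-67561880: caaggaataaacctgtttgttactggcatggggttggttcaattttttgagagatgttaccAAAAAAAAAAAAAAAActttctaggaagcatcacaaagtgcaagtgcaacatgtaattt
Chd8 intron 18, mouse dendrites, chr14:52834575-52834694: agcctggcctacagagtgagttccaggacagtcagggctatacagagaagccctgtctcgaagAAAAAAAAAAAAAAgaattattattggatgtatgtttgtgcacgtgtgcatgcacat
Kdm6a intron 7, BAT, chrX:17811220-17811339: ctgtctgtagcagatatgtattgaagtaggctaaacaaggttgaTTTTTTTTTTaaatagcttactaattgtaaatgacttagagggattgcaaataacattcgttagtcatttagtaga
Kdm4c intron 17, mouse dendrites, chr4:74005933-74006052: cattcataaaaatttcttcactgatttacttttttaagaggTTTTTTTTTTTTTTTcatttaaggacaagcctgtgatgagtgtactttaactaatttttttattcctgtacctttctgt
Kdm3a intron 2, mouse somas, chr6:71576376-71576495: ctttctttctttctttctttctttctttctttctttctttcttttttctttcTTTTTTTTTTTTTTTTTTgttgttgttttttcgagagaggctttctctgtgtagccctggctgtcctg

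A larger share of chromatin genes than of genes in general was listed in each mouse list. The mouse annotation holds 77 genes that fit the naming rule. Of these, 56 (72.7%, interval 61.9 to 81.4) were listed in mouse dendrites, 50 (64.9%, 53.8 to 74.7) in mouse somas, 61 (79.2%, 68.9 to 86.8) in BAT and 55 (71.4%, 60.5 to 80.3) in cardiomyocytes. Over all annotated genes the shares were 43.9%, 30.1%, 51.9% and 31.6%. The listed transcripts of members had a median of 22 to 23 introns, against 10 to 11 over all listed transcripts. Of the introns of their listed transcripts, 13.7% were listed in mouse dendrites, 8.7% in mouse somas, 20.1% in BAT and 13.3% in cardiomyocytes, against 15.7%, 11.9%, 21.6% and 14.5% over all genes. These values are over listed transcripts alone, and the part of intron number in the share of genes listed was not tested.

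Of the 77 genes, 66 were listed in at least 1 mouse list and 39 in all 4. The other 11 had no listed intron in mouse: Arid3a, Arid3c, Arid5a, Hdac5, Hdac7, Hdac10, Hdac11, Kdm4d, Setd1b, Setd6 and Smarcd2. Symbols found in all 6 lists also numbered 11: Arid4a, Arid4b, Arid5b, Chd1, Chd2, Ehmt1, Kdm4c, Kdm5b, Setd5, Smarca2 and Smarcc1. Of the genes listed in any mouse list, members were in all 4 in 59.1% of cases and genes as a whole in 24.6%. In rat, 29 symbols were listed, 15 of them in both lists. One of these, Kdm1, is the older symbol of the lysine demethylase Kdm1a, which in mouse was listed in BAT alone.

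**Figure D1:**
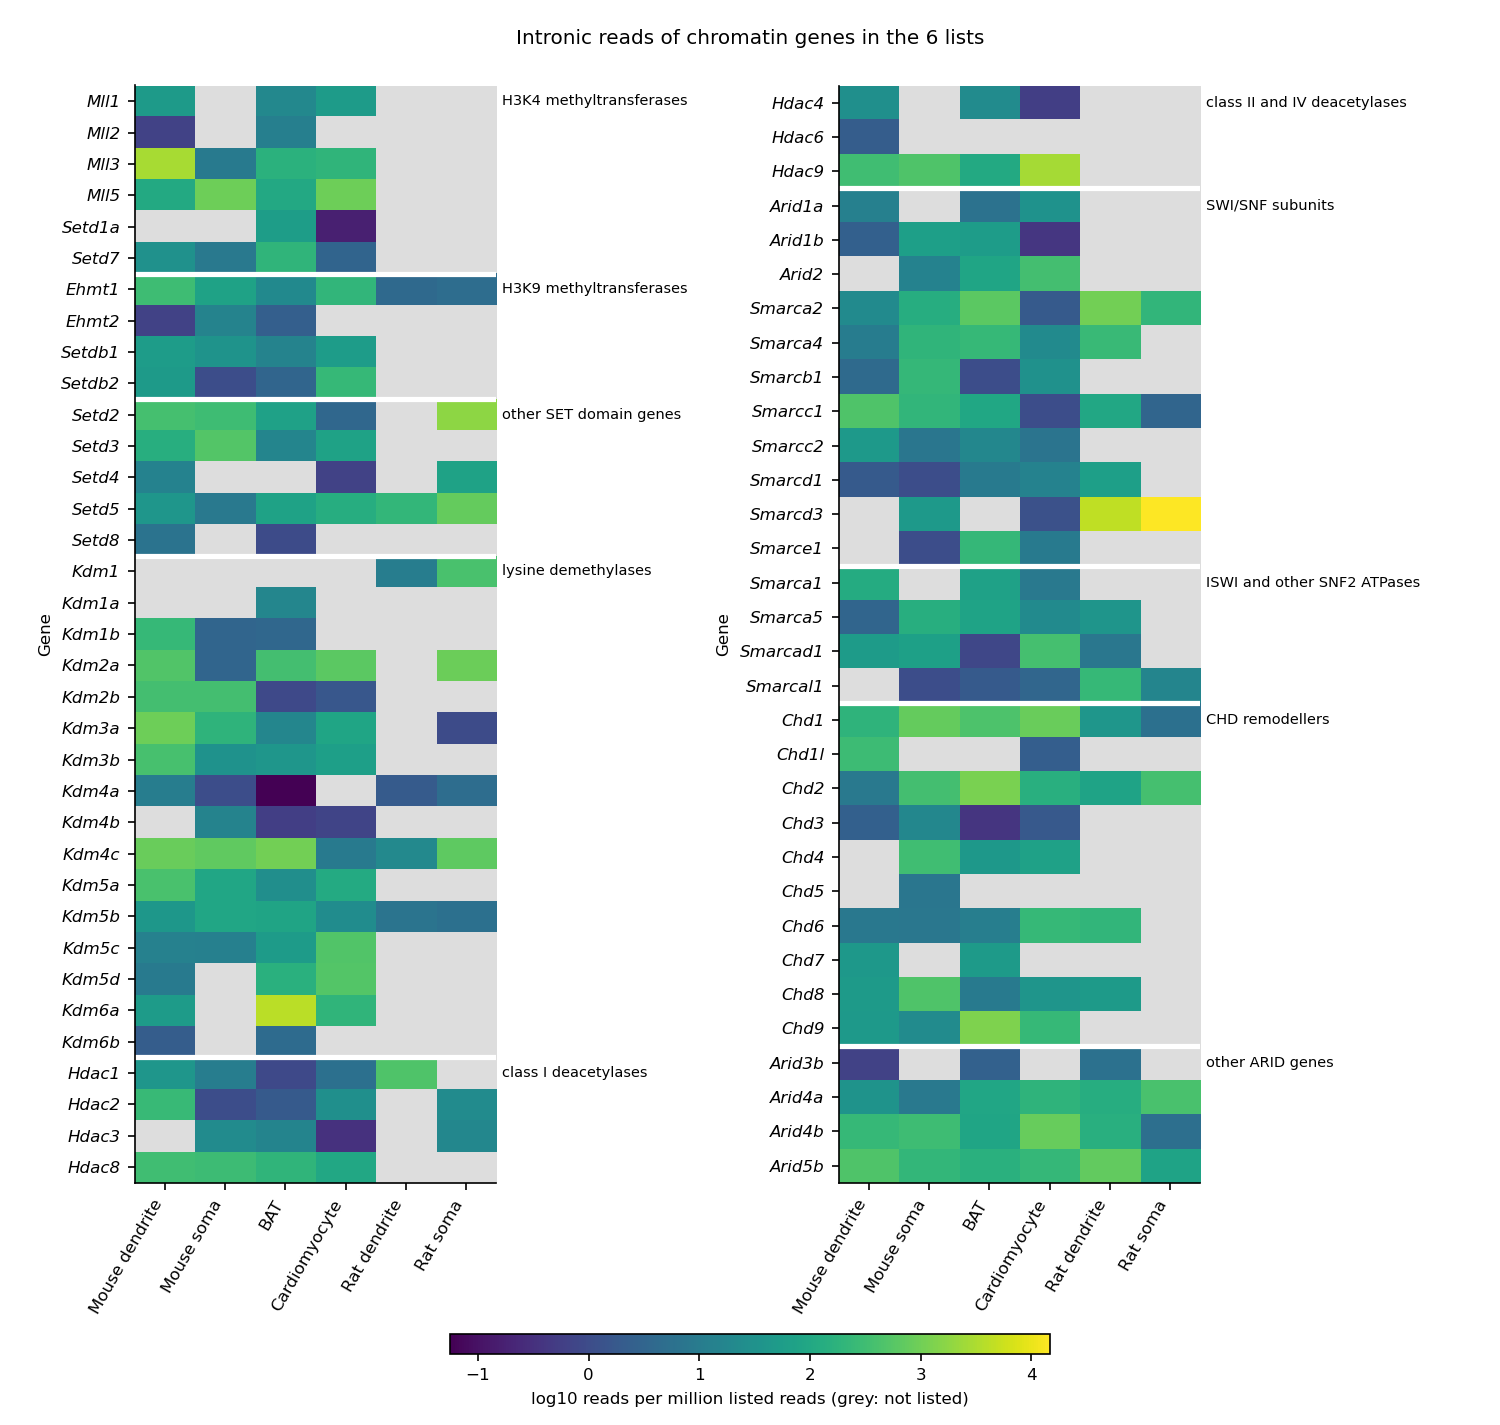
RPM of each chromatin gene (rows, grouped by role) in the 6 lists (columns), on a log10 colour scale with grey where a gene was not listed. Smarcd3 in rat somas is the brightest cell at 14735.4 RPM, and Kdm6a in BAT, Mll3 in mouse dendrites and Hdac9 in cardiomyocytes stand out in their columns.

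The reads were unevenly spread over introns. The median member intron carried 26 reads in mouse dendrites, 21.5 in mouse somas, 30 in BAT, 39 in cardiomyocytes, 20 in rat dendrites and 34 in rat somas, against 24, 22, 29, 53, 14 and 24 over all introns. With contigs of at most 400 nt the member medians were 22.5, 14, 20, 15, 9 and 8 reads. Yet the 5 member introns with the most reads held 44.9%, 35.8%, 60.8%, 42.0%, 78.4% and 90.2% of all member reads. In sum, members carried 10930.2 RPM in mouse dendrites, 7854.7 in mouse somas, 11864.4 in BAT, 10645.5 in cardiomyocytes, 8271.7 in rat dendrites and 20454.1 in rat somas. The top intron of each list decided much of this. Without it the sums were 8173.5, 7078.2, 7997.2, 8800.3, 3884.0 and 5804.2, so the rat soma list moved from the highest sum to the fifth.

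Few listed member introns lay next to the transcript start. Of member introns listed, 1.03% in mouse dendrites, 0.943% in mouse somas, 0.968% in BAT and 0.568% in cardiomyocytes were the first intron of their transcript, against 9.0%, 8.89%, 8.3% and 7.88% over all genes. Because members have more introns, the share of annotated first introns that were listed was also taken, over transcripts with at least 1 listed intron. This measure still depends on intron number, because a listed transcript with few introns is likelier to have its first one listed. It was 2 of 60 (3.33%, interval 0.919 to 11.4) in mouse dendrites, 1 of 53 (1.89%, 0.334 to 9.94) in mouse somas, 3 of 67 (4.48%, 1.53 to 12.4) in BAT and 1 of 58 (1.72%, 0.305 to 9.14) in cardiomyocytes. Over all genes, 19.7%, 15.6%, 23.5% and 16.1% of first introns were listed, above the upper bound of the members' interval in all 4 mouse lists. The median length of the members' first introns was 3041 to 4293.5 nt, and that of all genes 4334 to 5535 nt. The part of first intron length and of intron number in the difference was not tested. Kdm5b, a demethylase of histone H3 lysine 4, was an exception, with 26, 154, 553 and 40 reads in its first intron in mouse dendrites, mouse somas, BAT and cardiomyocytes.

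List totals differ, so a gene's reads in different lists can be compared only as RPM, given beside the reads of the leading genes. Among lysine demethylases, 13 were listed in mouse dendrites, 11 in mouse somas, 15 in BAT and 11 in cardiomyocytes. They held 34.9%, 19.2%, 49.4% and 20.3% of the member reads of those lists. Kdm6a (UTX), an X-linked demethylase of histone H3 lysine 27, carried 72217 reads in BAT, of which 69619 lay in intron 7. These formed 1 contig of 2077 nt within an intron of 2746 nt at chrX:17811280-17813356. The same intron had 2 reads in cardiomyocytes and was not listed in mouse dendrites or somas, so this count rests on BAT alone. Kdm4c, a demethylase of histone H3 lysines 9 and 36, was listed in all 6 lists with 2681 reads in mouse dendrites, 1309 in mouse somas, 18752 in BAT, 116 in cardiomyocytes, 20 in rat dendrites and 1401 in rat somas (869, 705, 1050, 9.51, 19.9 and 669 RPM). Its leading intron differed by list: intron 4 in mouse dendrites (1516 reads), intron 17 in mouse somas (1256 reads), intron 14 in BAT (16497 reads), intron 20 in cardiomyocytes (113 reads) and intron 2 in rat somas (1320 reads). Intron numbers of Kdm4c come from more than 1 annotated transcript and are not all on the same scale.

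In sums of listed introns over the 4 mouse lists, an intron is counted once in each list that holds it. Kdm5a, which removes methyl groups from histone H3 lysine 4, was the demethylase with the most listed introns, 28 in this sum. It had 1239 reads in 12 introns in mouse dendrites, 168 reads in 1 intron in mouse somas, 486 reads in 11 introns in BAT and 1402 reads in 4 introns in cardiomyocytes (401, 90.5, 27.2 and 115 RPM). Kdm3a, a demethylase of histone H3 lysine 9, had 2616 reads in intron 2 in mouse dendrites, 10 in mouse somas and 4 in BAT. Kdm3b intron 6 had 1168 reads in mouse dendrites, and its contigs touched an exon of Gm17557, a gene annotated on the other strand. The protocol was not strand-specific, so reads of these 2 genes cannot be told apart there. Kdm2a, which acts on histone H3 lysine 36, had 1527, 6, 6416 and 7853 reads (495, 3.23, 359 and 644 RPM) in the 4 mouse lists and 1902 in rat somas, 1900 of them in intron 15. Kdm5d, the Y-linked relative of Kdm5c, had 6357 reads in intron 12 in cardiomyocytes and 1084 in BAT.

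The Mll genes, Setd1a, Setd1b and Setd7 were put in 1 role group, named for methyltransferases of histone H3 lysine 4. Mll5 was placed there with its name family, and its enzyme activity was not examined. In this group, Mll3 led in mouse dendrites, Mll5 in mouse somas and cardiomyocytes, and Setd7 in BAT (3541 reads). Mll3, a large enzyme that acts at enhancers, had 8674 reads in mouse dendrites, 18 in mouse somas, 2886 in BAT and 2359 in cardiomyocytes (2810.2, 9.7, 162 and 193 RPM). In mouse dendrites 8579 of these lay in intron 9 as 3 contigs, 1 of which touched an exon annotated for another Mll3 transcript. Mll5 has a SET domain and is known from the control of cell division. Summed over the 4 mouse lists it had 40 listed introns, the most of any member. Its reads were 339 in mouse dendrites, 1701 in mouse somas, 1878 in BAT and 11585 in cardiomyocytes (110, 917, 105 and 950 RPM). The leading intron was number 10 in mouse somas (725 reads) and number 16 in cardiomyocytes (6299 reads). Setd1a was listed in BAT with 1049 reads and in cardiomyocytes with 2. No gene of this group was listed in either rat list.

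The 4 methyltransferases of histone H3 lysine 9 summed to 418 RPM in mouse dendrites, 123 in mouse somas, 41.6 in BAT and 509 in cardiomyocytes. Ehmt1, which methylates this lysine together with Ehmt2, was listed in all 6 lists with 963, 136, 378, 2522, 4 and 10 reads (312, 73.3, 21.2, 207, 3.97 and 4.77 RPM). In cardiomyocytes 2493 of its reads lay in intron 16, an intron listed in all 4 mouse lists. Among the other SET domain genes, Setd2, the enzyme that trimethylates histone H3 lysine 36, had 1173 reads in mouse dendrites, 567 in mouse somas, 1242 in BAT, 45 in cardiomyocytes and 3625 in rat somas (380, 306, 69.5, 3.69 and 1730.7 RPM), where intron 15 held 2915. Setd5 was listed in all 6, and in BAT its introns 9, 10 and 11 were spanned end to end with 221, 512 and 600 reads, the last by a contig that touched an annotated Setd5 exon. In rat somas 1650 reads lay in its intron 18. Setd3, an actin histidine methyltransferase named for its domain, had 431, 966, 251 and 905 reads in its intron 6 in the 4 mouse lists.

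Among class I deacetylases, Hdac8 had the most listed introns, 15 summed over the 4 mouse lists. Its reads were 985, 548, 3596 and 1204 (319, 295, 201 and 98.7 RPM) in mouse dendrites, mouse somas, BAT and cardiomyocytes. Hdac1, a catalytic subunit of several corepressor complexes, had 122, 21, 16 and 70 reads (39.5, 11.3, 0.896 and 5.74 RPM) in the same lists, and 480 in rat dendrites with 432 of them in intron 7. Its partner Hdac2 had 792, 2, 35 and 336 reads (257, 1.08, 1.96 and 27.5 RPM) in the 4 mouse lists. Hdac9, a class II deacetylase that binds MEF2 factors in muscle and neurons, carried 968 reads in mouse dendrites, 897 in mouse somas, 1955 in BAT and 33743 in cardiomyocytes. In RPM these were 314, 483, 109 and 2765.6, so BAT was the lowest and somas were above dendrites. In every mouse list its reads came from 3 introns, with intron 2 and intron 8 holding nearly all of them. Intron 2, of 90904 nt, had 22713 reads in cardiomyocytes in 9 contigs, and intron 8 had 9878 reads. Hdac5, Hdac7, Hdac10 and Hdac11, of the same class or class IV, were in no list, and Hdac6 had 7 reads in mouse dendrites alone.

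SWI/SNF remodellers were listed broadly, with 8 genes in mouse dendrites, 10 in mouse somas, 10 in BAT and 11 in cardiomyocytes. Smarcc1, a scaffold subunit, had the most listed introns at 24 summed over the 4 mouse lists. Its reads were 1494, 379, 1727, 13, 99 and 7 (484, 204, 96.7, 1.07, 98.3 and 3.34 RPM) in the 6 lists. Smarca2 (BRM), an ATPase of the complex, had 68 reads in mouse dendrites, 248 in mouse somas, 11586 in BAT, 23 in cardiomyocytes, 1027 in rat dendrites and 432 in rat somas (22, 134, 649, 1.89, 1019.3 and 206 RPM). In BAT 10041 of these lay in intron 3, and in rat dendrites 678 lay in intron 4. Smarca4 (BRG1), the alternative ATPase, had 271 reads in rat dendrites, all in intron 13. The highest RPM of any member was that of Smarcd3 (BAF60C), a subunit known from heart and neuron differentiation, in rat somas, at 14735.4. Its intron 9 held 4438 reads in rat dendrites (53.3% of member reads there) and 30864 in rat somas (72.0%). The contigs ended at the same base, at 5957932 to 5958361 on rat chromosome 4 in dendrites and 5957704 to 5958361 in somas (rn4). In mouse, Smarcd3 had 84 reads in somas and 15 in cardiomyocytes, and was not listed in dendrites or BAT.

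Among other SNF2 ATPases, Smarca5, the motor of ISWI complexes, led by introns (23 summed over the 4 mouse lists). Its reads were 10, 266, 1374 and 264 (3.24, 143, 76.9 and 21.6 RPM). Smarcad1 had 166, 125, 14 and 4463 reads (53.8, 67.4, 0.784 and 366 RPM) in the same lists. Among CHD remodellers, Chd2 had the most listed introns, 31 by the same sum. Its reads were 27 in mouse dendrites, 668 in mouse somas, 20975 in BAT, 1760 in cardiomyocytes, 80 in rat dendrites and 774 in rat somas (8.75, 360, 1174.5, 144, 79.4 and 370 RPM). Its intron 19 held 12415 of the BAT reads. Chd1, which binds methylated histone H3 lysine 4, had 592, 1453, 7906, 10430, 40 and 12 reads (192, 783, 443, 855, 39.7 and 5.73 RPM) in the same order. In BAT and cardiomyocytes most of them came from the same intron 5, with 6972 and 9326 reads, in contigs that ran up to the last base of the intron. In mouse somas the leading Chd1 intron was number 23 with 1451 reads. Chd9 intron 13 had 20293 reads in BAT, where 1 of its 2 contigs touched an annotated Chd9 exon, and Chd8 intron 18 had 814 reads in mouse somas in a contig that touched a Chd8 exon.

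The remaining ARID genes encode DNA binding proteins outside SWI/SNF. Arid4b, a partner of the Sin3 deacetylase complex, had 33 listed introns summed over the 4 mouse lists. Its reads were 739, 564, 1572, 9670, 148 and 11 (239, 304, 88, 793, 147 and 5.25 RPM) in the 6 lists. Arid5b, a partner of the demethylase Phf2, had 1489, 401, 2776, 2834, 731 and 165 reads (482, 216, 155, 232, 726 and 78.8 RPM), and Arid4a had 106, 16, 1583, 2260, 137 and 839 (34.3, 8.62, 88.6, 185, 136 and 401 RPM). Arid5b intron 9 led in mouse dendrites (1279 reads) and intron 4 in rat dendrites (715 reads). All 3 were listed everywhere. Arid3b was listed with 2 reads in mouse dendrites, 48 in BAT and 6 in rat dendrites, and in neither soma list.

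**Figure D2:**
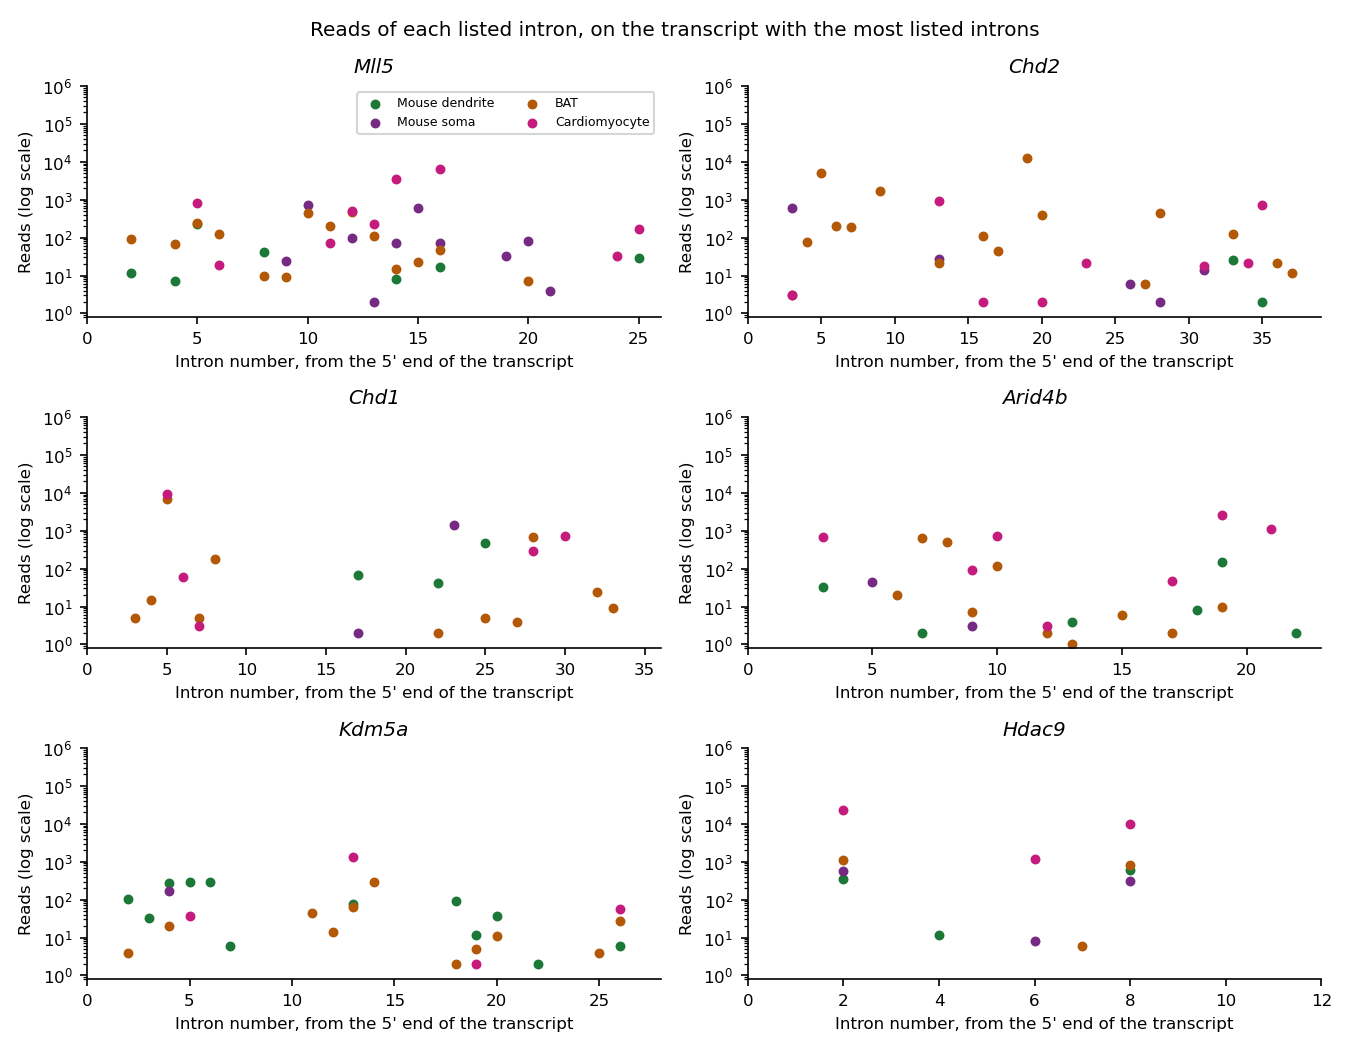
Reads of each listed intron (y axis, log scale) by intron number from the 5′ end (x axis) for 6 chromatin genes in the 4 mouse lists (colours), on the transcript of each gene with the most listed introns. Listed introns are scattered along Mll5, Chd2, Chd1, Arid4b and Kdm5a, while Hdac9 has points at introns 2 and 8 in every list, highest in cardiomyocytes at 22713 and 9878 reads.

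Dendrites and somas were compared gene by gene, over the summed reads of each gene's listed introns, so a fold can set different introns of a gene against each other. A gene listed in both was counted as higher at 4-fold or more in RPM. Between mouse dendrites and somas, 42 members were in both lists. Of these, 12 (28.6%) were higher in dendrites and 11 (26.2%) in somas. Over all 4739 genes in both lists the shares were 33.2% and 24.9%, so the members' shares were near the background. The median log2 ratio of dendrites to somas was 0.31 over the members and 0.27 over all genes. An intron listed in both was held by 9 of the 12 members higher in dendrites and by 3 of the 11 higher in somas. The other 3 (25%) and 8 (72.7%) shared none, beside 24.1% and 33.3% of all genes past the limit on each side. Counted by intron, 13 (29.5%) of the 44 member introns in both lists were higher in dendrites and 15 (34.1%) in somas, beside 32.4% and 30.3% of all 5049. Another 14 of the 64 members in either list were in dendrites alone and 8 in somas alone, beside 39.6% and 11.8% of all genes. The largest differences toward dendrites were in Mll3 (8674 against 18 reads, 290-fold, counting interval 183 to 489), Hdac2 (792 against 2 reads, 238-fold, 65.7 to 1969.1) and Kdm2a (1527 against 6 reads, 153-fold, 70.1 to 418). The fold of Mll3 rests on introns that were not listed in somas. Its 1 soma intron, number 7, had 22 reads in dendrites and 18 in somas. Hdac2 intron 8 had 741 and 2 reads, and the 2 Kdm2a introns in both lists had 793 and 6, in contigs that did not overlap. The soma values of Hdac2 and Kdm2a are a handful of reads, which is why their intervals are wide.

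Toward somas, the largest differences in summed reads were in Smarcb1, Smarca5 and Chd2. None of the 6 genes named here had an intron listed in both, so these folds compare different introns of a gene. Smarcb1, a core SWI/SNF subunit, had 13 reads in mouse dendrites, in intron 3, and 426 in somas, in introns 5 and 7 (54.5-fold higher in somas, 31.5 to 103). Smarca5 had 10 and 266 reads (44.2-fold, 23.7 to 93.3). Chd2 had 27 and 668 reads (41.2-fold, 28 to 62.9). Next came Arid1b, a DNA-binding SWI/SNF subunit, with 8 and 118 reads (24.5-fold, 12.1 to 58.2), the histone H3 lysine 9 methyltransferase Ehmt2 with 2 and 28 (23.3-fold, 5.87 to 202) and Smarca4 with 32 and 371 (19.3-fold, 13.4 to 28.6).

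In rat, 15 members were in both lists, 6 (40.0%) higher in dendrites and 3 (20%) in somas, beside 35.7% and 24.6% of all 2166 genes in both. With contigs of at most 400 nt the counts were 3 (27.3%) and 1 (9.09%) of 11, beside 32.8% and 20.6% of all 1396 genes. The median log2 ratio was -0.27 over the members and 0.73 over all genes. A further 8 members were in dendrites alone and 6 in somas alone, with backgrounds of 40.6% and 21.5% of genes in either list. Smarcc1 had 99 and 7 reads in rat dendrites and somas (29.4-fold, 13.7 to 75.0), Arid4b 148 and 11 (28-fold, 15.2 to 57.3) and Smarcal1, an annealing helicase, 236 and 34 (14.4-fold, 10 to 21.3). Toward somas, Kdm1 had 11 and 853 reads (37.3-fold, 20.7 to 75.0), Kdm4c 20 and 1401 (33.7-fold, 21.7 to 55.3) and Chd2 80 and 774 (4.65-fold, 3.69 to 5.93). Of these 6 genes, Kdm1 and Kdm4c had an intron in both lists, with 2 and 446 reads in Kdm1 intron 7 and 20 and 47 in Kdm4c intron 19. Chd2 was the 1 member past 4-fold in the same direction in both species, higher in somas in each, and in neither species was one of its introns in both lists. Of 28 members listed in both species, 13 were past 4-fold or listed in 1 fraction alone in each. Of these, 3 (23.1%) had the same side in both species, Chd2 and Hdac3 in somas and Arid3b in dendrites, beside 57.8% of 2412 genes. The other 10 had opposite sides. Chd1, Chd8, Smarca2, Smarca4, Smarca5 and Smarcal1 were on the soma side in mouse and the dendrite side in rat, and Hdac2, Kdm2a, Kdm3a and Setd4 the reverse. Some sides rest on very few reads. Smarcal1 had 2 in mouse somas, Kdm3a 2 in rat somas, and Arid3b, with the same side in both, 2 in mouse and 6 in rat dendrites. Whether 3 of 13 differs from the share over all genes was not tested. Of rat dendrite members, 87.0% were also in the mouse dendrite list, which is 35.7% of the latter. Over all genes these shares were 61.6% and 32.1%.

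BAT and cardiomyocytes shared 52 members, 15 (28.8%) higher in BAT and 18 (34.6%) in cardiomyocytes, against 34.3% and 28.3% of all 5442 genes in both. The order of these counts depended on the settings. With contigs of at most 400 nt, 13 (31.0%) of 42 were higher in BAT and 12 (28.6%) in cardiomyocytes, beside 34.4% and 26.9% of all 4303 genes. At 8-fold the member counts were 14 and 10. With totals taken without the top 1% of introns, 17 (32.7%) were higher in BAT and 12 (23.1%) in cardiomyocytes, against 36.8% and 25.7% of all genes, and the median log2 ratio of all genes shifted by 0.28. That median, of BAT over cardiomyocytes, was -0.84 over the members and 0.32 over all genes in the main scaling, and -0.55 and 0.6 in the other. Members in BAT alone numbered 9 and in cardiomyocytes alone 3, with backgrounds of 43.5% and 6.95% of genes in either list. In summed reads, Setd1a had 1049 and 2 (358-fold higher in BAT, 99 to 2962.8), Smarca2 11586 and 23 (344-fold, 229 to 543) and Arid1b 1004 and 5 (137-fold, 58.6 to 423). In the other direction, Smarcad1 had 14 and 4463 reads (467-fold higher in cardiomyocytes, 278 to 854), Setdb2 60 and 2995 (73.1-fold, 56.6 to 96.0) and Smarcb1 19 and 375 (28.9-fold, 18.2 to 48.5). Setd1a, Smarcad1 and Setdb2 had no intron in both lists, so their folds compare different introns. In the introns listed in both, Smarca2 had 1068 and 16 reads, Arid1b 388 and 4 and Smarcb1 7 and 375. The contigs of these 3 genes did not overlap between the lists. The 2 SWI/SNF ATPases went the same way, Smarca4 having 4219 and 269 reads (10.7-fold higher in BAT, 9.47 to 12.2), again in different introns. The other SWI/SNF subunits past 4-fold were split, with Arid1b, Smarcc1 and Smarce1 higher in BAT and Arid1a, Arid2 and Smarcb1 higher in cardiomyocytes. Strain, age, isolation and sequencing depth differ between these groups together with the cell type and cannot be told apart from it.

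**Figure D3:**
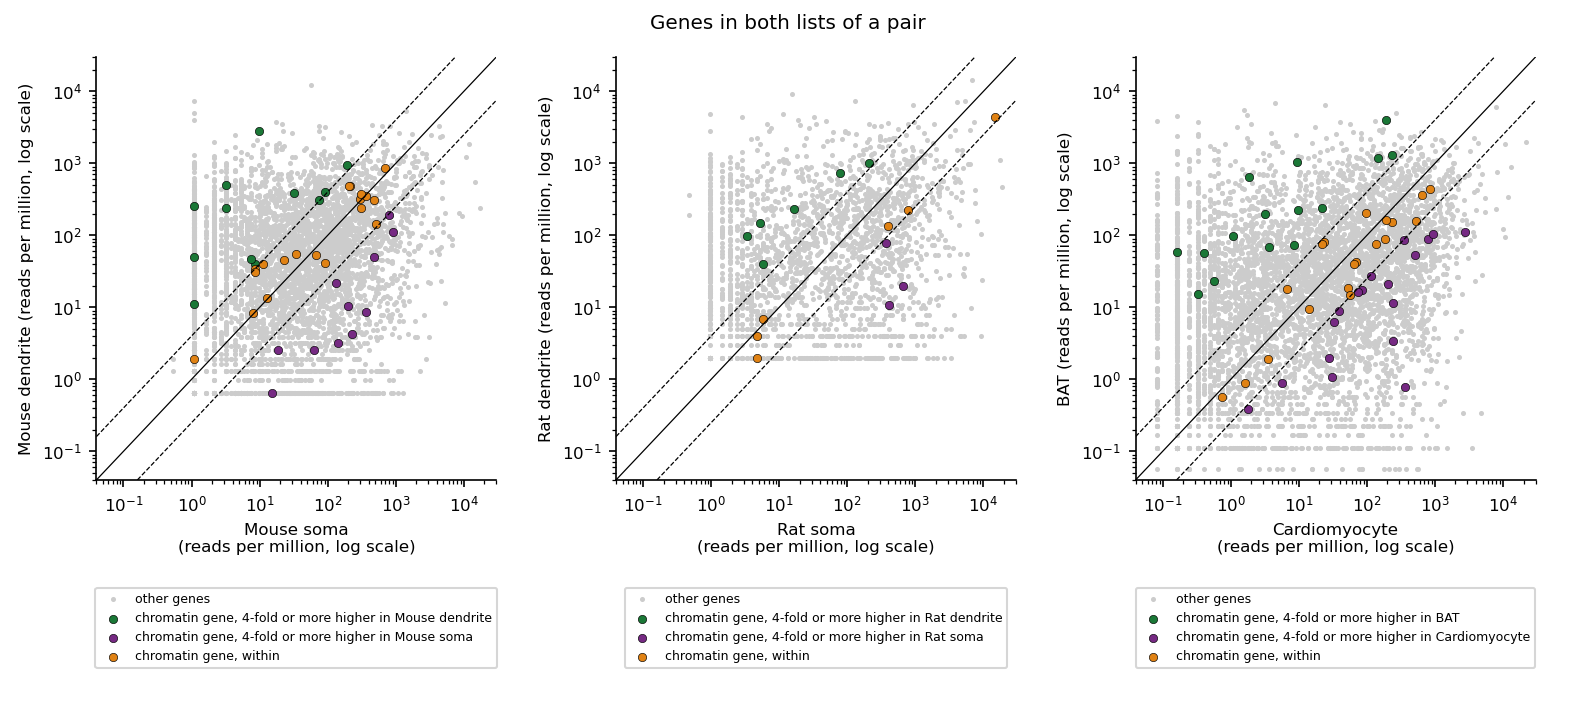
RPM of genes listed in both lists of a pair (both axes on a log scale), with chromatin genes in colour over all other genes in grey, the solid line at equal levels and dashed lines at 4-fold. Chromatin genes lie on both sides of the lines in all 3 panels, with 12 and 11 past them in mouse neurons, 6 and 3 in rat neurons and 15 and 18 in BAT against cardiomyocytes, which turn to 17 and 12 with totals taken without the top 1% of introns.

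The same introns recurred in part. The 4 mouse lists held 477 member introns, of which 261 (54.7%, interval 50.2 to 59.1) were in 1 list and 22 (4.61%, 3.07 to 6.88) in all 4, against 60.5% and 3.7% of all introns. Where an intron was listed in both lists of a pair, its contigs overlapped by at least 1 base in 22 of 44 cases (50.0%, 35.8 to 64.2) for mouse dendrites and somas, with a background of 58.0% over all genes. The shares were 45.9% of 109 for mouse dendrites and BAT (background 44.1%), 46.2% of 65 for mouse dendrites and cardiomyocytes (44.9%) and 57.5% of 40 for mouse somas and cardiomyocytes (59.8%). They were 62.0% of 108 for BAT and cardiomyocytes (65.3%) and 6 of 6 in rat (66.5%). For mouse somas and BAT, 20 of 58 (34.5%, 23.6 to 47.3) overlapped against 52.4%. In the other pairs the background lay within the members' interval. With contigs of at most 400 nt the shares were lower, from 15.2% for mouse somas and BAT to 49.1% for BAT and cardiomyocytes in mouse, and 50.0% in rat. The share over all introns was not taken at that limit, so whether this fall is particular to members cannot be told.

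Among the 22 introns in all 4 mouse lists, contigs overlapped in all 6 pairs of lists in Hdac1 intron 2, Hdac9 intron 2, Kdm3b intron 11 and Mll5 intron 16. In Mll5 intron 16 (2478 nt, 17, 73, 48 and 6299 reads) a contig began at the first base of the intron in every list. In Setd3 intron 6, of 38589 nt, overlap was found in 5 of 6 pairs, with 6, 4, 2 and 3 contigs in mouse dendrites, mouse somas, BAT and cardiomyocytes. Hdac9 intron 8 had the identical contig in mouse dendrites and somas, of which the 3′ end is printed above, and cardiomyocytes had a contig of 663 nt across the same place. The BAT contigs of that intron lay elsewhere.

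**Figure D4:**
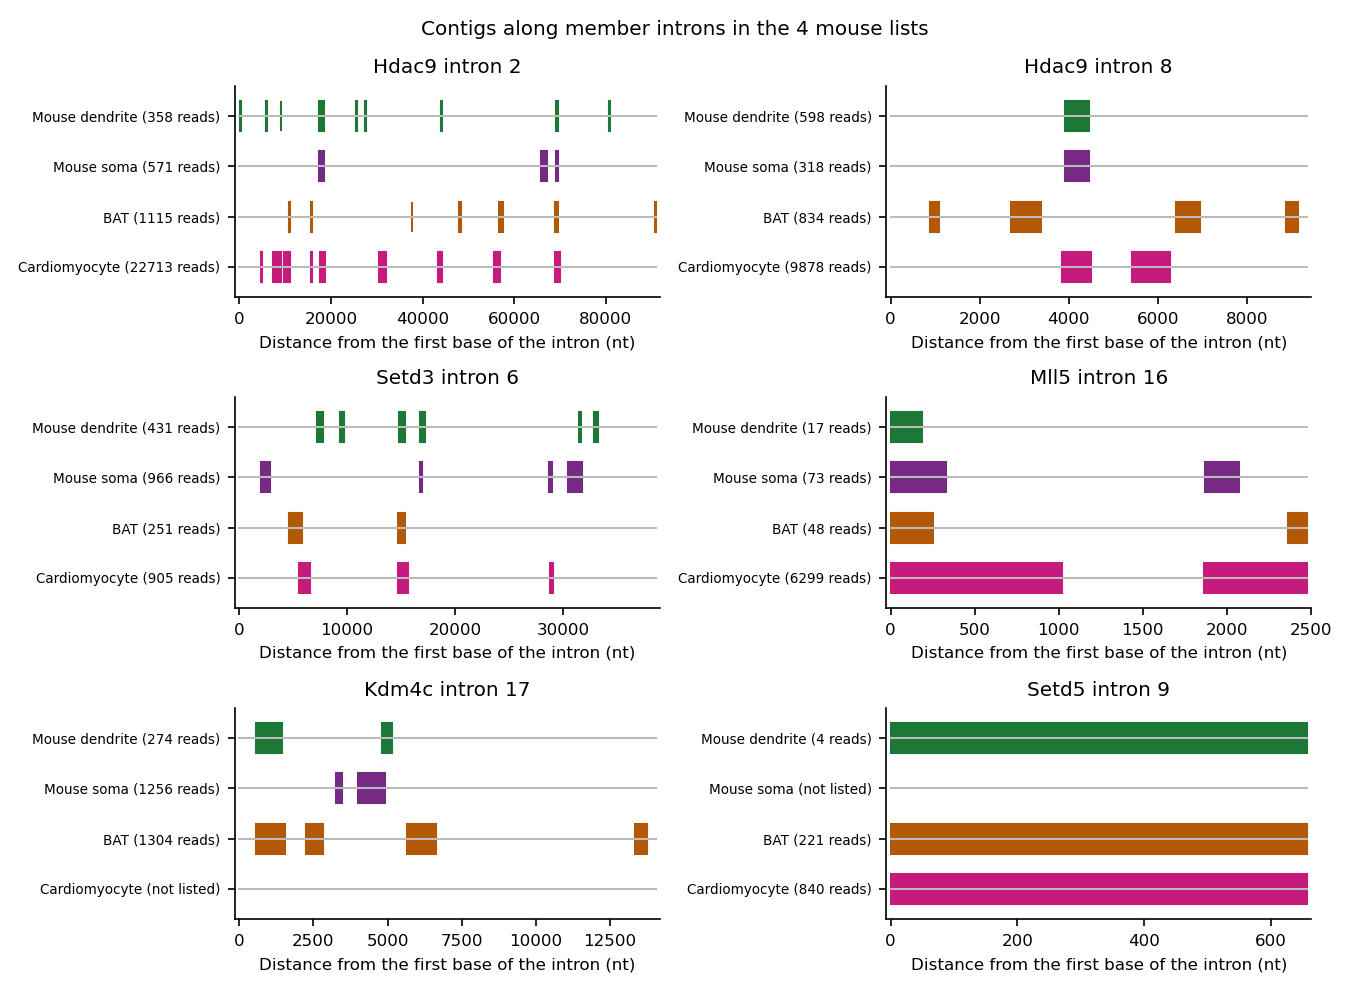
Position of contigs (boxes) along 6 member introns (x axis, nt from the first base of the intron) in the 4 mouse lists, with the reads of the intron beside each name. The boxes of mouse dendrites and somas coincide in Hdac9 intron 8, every list has a box at the start of Mll5 intron 16, and Setd5 intron 9 is spanned in 3 lists.

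Listed pieces were short. The median member contig was 266.5 nt in mouse dendrites, 266.5 in mouse somas, 280.5 in BAT, 295.5 in cardiomyocytes, 292 in rat dendrites and 321 in rat somas, against 257, 278, 274, 283, 279 and 304 nt over all genes. A listed member intron of the mouse was spanned by contigs over a median of 11.2% of its length in dendrites, 10% in somas, 15.0% in BAT and 12% in cardiomyocytes, beside 8.45%, 9.22%, 13.3% and 12.6% over all genes. Contigs that ran from within 5 nt of the start to within 5 nt of the end of an intron, like those over the introns printed first, were 2 of 260 in mouse dendrites (0.769%, interval 0.211 to 2.76), 3 of 130 in mouse somas (2.31%, 0.788 to 6.57), 27 of 440 in BAT (6.14%, 4.25 to 8.78) and 12 of 222 in cardiomyocytes (5.41%, 3.12 to 9.21). Over all genes the shares were 0.666%, 1.81%, 7.91% and 8.27%. In BAT, 7 of the 27 were Chd4 introns: numbers 6, 7, 26, 27, 28, 29 and 30. Their reads were 73, 73, 23, 23, 16, 153 and 227. A contig reached the 5′ end of its intron in 3.46% of cases in mouse dendrites, 7.69% in mouse somas, 18.6% in BAT and 18.9% in cardiomyocytes, beside 4.25%, 7.44%, 17.1% and 18.4% over all genes.

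Runs of A and T lay at opposite ends of the contigs. Within 30 bases of a contig's 3′ end, a run of at least 10 A was found for 25 of 260 member contigs in mouse dendrites (9.62%, interval 6.6 to 13.8), 23 of 130 in mouse somas (17.7%, 12.1 to 25.2), 28 of 440 in BAT (6.36%, 4.44 to 9.04) and 27 of 222 in cardiomyocytes (12.2%, 8.49 to 17.1). At the 5′ end such a run was found for 0, 0, 1 and 1 contigs. Taking 3 counts as the limit, a count of 0 allows a share of up to 1.15% in mouse dendrites and 2.31% in mouse somas, and the Wilson upper bounds are 1.46% and 2.87%. Runs of T had the opposite place. At the 5′ end they were found for 53 contigs in mouse dendrites (20.4%, 15.9 to 25.7), 17 in mouse somas (13.1%, 8.33 to 19.9), 42 in BAT (9.55%, 7.14 to 12.7) and 18 in cardiomyocytes (8.11%, 5.19 to 12.5), and at the 3′ end for 6, 0, 5 and 2.

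Contigs of all genes had the same arrangement. Runs of A at the 3′ end were found for 11.0%, 21.3%, 8.05% and 14% of them in the 4 lists, and runs of T at the 5′ end for 15.4%, 9.37%, 7.31% and 5.74%. The members' shares of T runs at the 5′ end were above these in each list, and in mouse dendrites the whole of the interval was. Their shares of A runs at the 3′ end were below these in each list, with the value over all genes inside every interval. At the opposite ends, all genes had runs of A in 0.435%, 0.41%, 0.513% and 0.685% of contigs and runs of T in 0.908%, 0.719%, 1.0% and 1.1%. Members had such T runs in 2.31% of contigs in mouse dendrites (1.06 to 4.94). The amplification primer binds runs of A, and a run of T on the strand of the gene is a run of A on the other. Reads were also trimmed of A and T runs before alignment. The part of these steps in where the contigs ended was not tested.

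**Figure D5:**
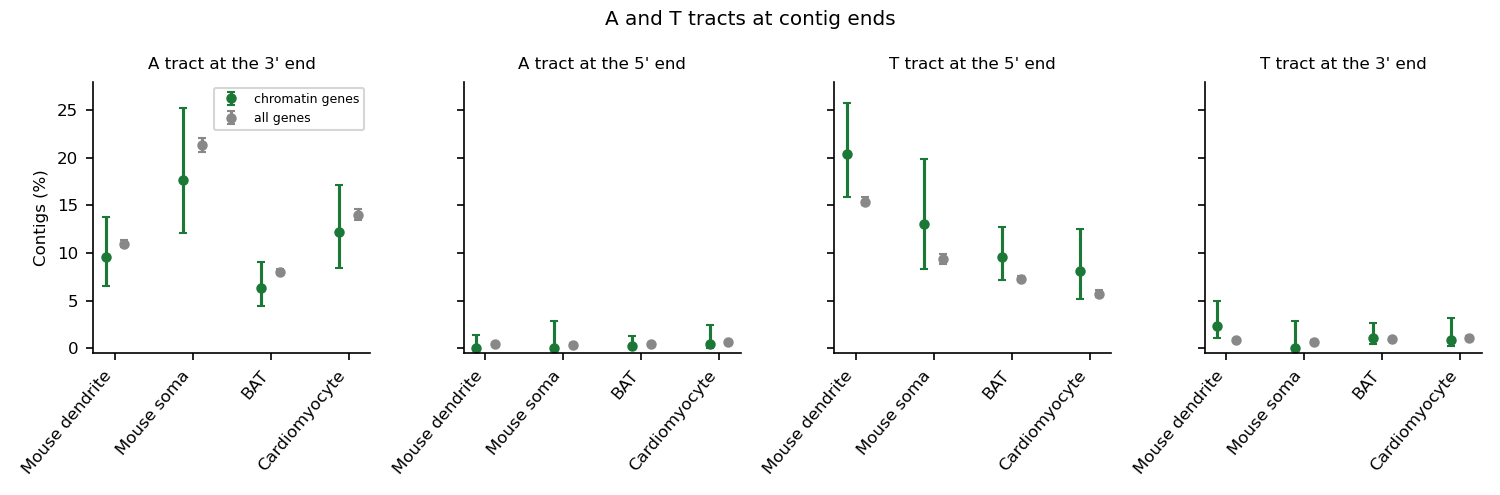
Share of contigs (y axis, percent) with a run of at least 10 A or T within 30 bases of an end, for chromatin genes (green) and all genes (grey) in the 4 mouse lists, with 95% Wilson intervals. Runs of A sit at 3′ ends (up to 17.7% of member contigs) and runs of T at 5′ ends (up to 20.4%), with few at the opposite ends.

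The splice sites of the listed member introns were ordinary. In mouse dendrites 191 of 194 began with GT and ended with AG, in mouse somas 105 of 106, in BAT 309 of 310 and in cardiomyocytes 176 of 176. The others began with GC: Kdm4c intron 5 in 3 lists, and Hdac8 intron 6 and Kdm5b intron 3 in mouse dendrites. Contigs that touched an annotated exon of any transcript, as in Mll3 intron 9, made up 6.92% of member contigs in mouse dendrites, 6.92% in mouse somas, 8.41% in BAT and 8.11% in cardiomyocytes, beside 5.04%, 9.61%, 7.54% and 11.4% over all genes. Such contigs may hold exon sequence of another transcript.

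Other genes of chromatin biology were also counted, from a list of 82 symbols, 79 of them in the mouse annotation. The list includes Polycomb subunits, acetyltransferases, bromodomain proteins and DNA methylation enzymes. In mouse dendrites, mouse somas, BAT, cardiomyocytes, rat dendrites and rat somas 56, 50, 64, 50, 25 and 15 of them were listed, with 6991.2, 6573.6, 14055.7, 13479.0, 7535.3 and 3412.2 RPM. Between mouse dendrites and somas, 11 (26.2%) of the 42 in both were higher in dendrites and 10 (23.8%) in somas, beside 33.2% and 24.9% over all genes. In rat 4 (36.4%) of 11 were higher in dendrites and 1 (9.09%) in somas, beside 35.7% and 24.6%. Between BAT and cardiomyocytes, 8 (16.3%) of 49 were higher in BAT and 14 (28.6%) in cardiomyocytes, beside 34.3% and 28.3%. With totals taken without the top 1% of introns these were 10 (20.4%) and 12 (24.5%), beside 36.8% and 25.7%.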

How the data were processed

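Paired reads of amplified RNA were aligned by the authors to mm9 or rn4 with the RUM pipeline after trimming of adapters and of runs of A and T. Uniquely aligned intronic reads, without regard to strand, were filtered against predicted genes, known RNAs and polyadenylation sites and joined into contigs. The deposited values are raw read counts per intron, pooled over the libraries of a group, and each list repeats an intron's count on each of its contigs. How the libraries entered a pool is not given in the sources used here.

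Counts were taken once per transcript and intron with pandas 2.3.3 in Python 3.11.15, and every contig was kept. Start and end proved to be 0-based positions of the first and last base, and are printed 1-based. Of listed mouse transcripts, 97.7% were matched to GENCODE on NCBIM37 (mm9), which gave intron lengths, exons and sequence. Rat sequence was not analysed here. Intervals are Wilson intervals from scipy 1.17.1, or exact conditional intervals for ratios of counts. The fold count was tested on simulated data.

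The members, gene lists and rules were chosen with earlier results of these data known. Named genes were the 5 introns with the most reads per list, the genes in all 6 lists or past 4-fold in both species, the member of each role with the most listed introns, and up to 3 genes with the largest difference in each direction of a pair. Spanned introns, contig ends, folds by intron, sides across species, printed sequences and further genes named with a role were chosen after their values were seen. Alternatives were a contig limit of 400 nt, a minimum of 32 reads, 2-fold and 8-fold limits, other scaling, joining and overlap, and membership without Arid3, Arid4 and Arid5 genes.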

Additional observations from a re-analysis of the deposited data

How the results depend on the processing

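No paired analysis was possible because each list pools its libraries, and for the same reason no library could be left out. A limit of 400 nt on contigs moved 12 values beyond 1.5 times (counts) or their interval (medians and shares) and left 19 within, and a minimum of 32 reads per intron moved 7 and left 5 within. With contigs of at most 400 nt, the share of shared member introns with overlapping contigs fell to 22.2% for mouse dendrites and somas, 27.9% for mouse dendrites and BAT, 16.1% for mouse dendrites and cardiomyocytes, 15.2% for mouse somas and BAT, 30.8% for mouse somas and cardiomyocytes, 49.1% for BAT and cardiomyocytes and 50.0% in rat. No share over all introns was taken beside these at that limit. With that limit the median reads per member intron were 22.5, 14, 20, 15, 9 and 8 in mouse dendrites, mouse somas, BAT, cardiomyocytes, rat dendrites and rat somas, 25 member introns were left in rat somas, and 3 rat genes were higher in dendrites and 1 in somas. With introns of at least 32 reads, 30 member genes were left in mouse somas, and the median contig was 328, 490, 394, 414, 418 and 532 nt in mouse dendrites, mouse somas, BAT, cardiomyocytes, rat dendrites and rat somas. Joining contigs within 2000 nt gave 309.5 nt in mouse dendrites and 331.5 nt in BAT. At 8-fold, 7 members were higher in mouse dendrites and 8 in mouse somas, and 14 were higher in BAT and 10 in cardiomyocytes. At 2-fold, 6 were higher in rat dendrites and 7 in rat somas. In each of these cases the order of the pair was turned from that at 4-fold. These alternatives keep fewer or longer contigs, or fewer or more genes, by construction. Scaling without the top 1% of introns also turned the order between BAT and cardiomyocytes, from 15 and 18 members higher to 17 and 12. It left the other pairs at 12 and 11 and at 6 and 3. The limit of 400 nt turned that order as well, to 13 in BAT and 12 in cardiomyocytes. Counting introns shared by transcripts once, overlap over 50% of the shorter contig and leaving out Arid3, Arid4 and Arid5 genes moved no value beyond 1.5 times or its interval. Member counts in rat rest on 47 and 41 introns, and depth as a cause was not tested.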
